A study of Mus musculus with 14 samples.

Results

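The promoter sites of 8 mouse genes, Strip2, Metap1, Ogdh, Nudt9, Tmem9b, Zc3h6, Rnf219 and Gm37256, were described in mammary adipose tissue by reduced-representation bisulfite sequencing (RRBS). The genes were selected on measured values: the study labels them as lower in mice after vertical sleeve gastrectomy (DIO-VSG) than in mice kept obese (DIO-HFD). Every site that the table assigns to them was taken, which gave 13 sites of 75761 and 8 genes of 12627, and all 13 were among the 65610 whose level had an SD of 0.05 or more over the mice. The contrast of DIO-VSG with DIO-HFD mice is therefore given for them as a description, without a test. The lead site of a gene is the site with the lowest mean in DIO-VSG minus DIO-HFD mice.

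The mice were female wild-type C57BL/6N (C57BL/6NCrl in the methods) that arrived at 8 weeks of age, 14 in all. For 15 weeks, 3 CON-LFD mice ate a formula with 10% of calories from fat, and the other 11 were made obese on a 60% formula. Afterwards 4 DIO-HFD mice continued on the 60% formula, 3 DIO-LFD mice were switched to the 10% formula, and 4 DIO-VSG mice were switched to it together with the operation. All 4 groups had either the operation or a sham procedure, and all were given E0771 mammary cancer cells in one fat pad 22 weeks after the diets began. The fat pad measured here was the tumor-free one on the opposite side, taken 4 weeks after the injection. The labels also name the injected cells as cell line and cell type, which describes the tumor and not this pad. DIO-VSG mice thus differ from DIO-HFD mice in both diet and surgery, and the groups of 4 and of 3 mice are small.

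DNA methylation is the addition of a methyl group to cytosine, in mammals mostly where a guanine follows (CpG). Promoters rich in CpG, called CpG islands, are usually unmethylated in normal tissue, and methylation of an island start is generally found with a silent gene. RRBS cuts DNA with MspI at CCGG, collects short fragments and reads bisulfite-treated ends, so a CCGG site lies at the end of each fragment. In the end repair of an RRBS library the overhang left by MspI is filled with added bases, so a read that reaches the far end of its fragment can carry an added cytosine there; whether reads were trimmed for this is not given in the sources used here. The level of a site is the methylated share of its reads. No read counts accompany the levels, so the depth behind each value is unknown and no counting interval was computed.

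The sequences below, 30 bases of the plus strand of GRCm38 (mm10) around the lead site of each gene, are shown because every one holds the same recognition sequence. Capitals mark CCGG, and the measured cytosine is its second base.
Strip2, chr6:29917080-29917109: cgaccccgcggcaCCGGggcccgccggctc
Metap1, chr3:138489137-138489166: gcccccgagagcgCCGGcggccgggctccc
Ogdh, chr11:6291633-6291662: gagagtttggagcCCGGagtggtgtcggcg
Nudt9, chr5:104046892-104046921: gctgctggcgccgCCGGccagcggcgctgg
Tmem9b, chr7:109752206-109752235: ccgagccccgcgcCCGGctcgggatccggc
Zc3h6, chr2:128967479-128967508: tgcacgccgcccgCCGGctcccacgcctca
Rnf219, chr14:104522491-104522520: ctcccgcgggcaaCCGGtcctcaaccccgt
Gm37256, chr3:75956490-75956519: tcatcgacgccacCCGGccagcagccacca

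In 4 genes a second listed site lies at the opposite end of the MspI fragment that the lead site closes. These ends are shown because their levels differed from those of the lead sites.
Strip2 opposite end, chr6:29916967-29916996: gcggggcctggtcCCGGgcgcgcgctgtgg
Metap1 opposite end, chr3:138489035-138489064: aggtcttgggctaCCGGctcccgcgcgtcc
Zc3h6 opposite end, chr2:128967374-128967403: caaggtgttgcggCCGGcgccattttctga
Rnf219 opposite end, chr14:104522674-104522703: ggaatgcgcgaggCCGGctacggcggcctg

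All 13 sites were within CCGG and carried the promoter flag of the table, and 12 also carried the CpG island flag, the exception being a Strip2 site at position 29916849. All 8 lead sites lay downstream of the transcript start given in the table, from 16 bp at Ogdh to 405 bp at Gm37256, as did 1 of the 5 other sites. Among the 4727 tested CCGG sites in promoter CpG islands, called island CCGG sites here, 65.7% lay downstream. The 201 bp around a lead site held 19 to 29 CpGs (median 21.5), against a median of 20 for island CCGG sites. On 1 side of every lead site the next CCGG was less than 30 bp away, as at 34.2% of island CCGG sites, a distance chosen after the values were seen. The longer word GCCGGC, searched for in the same way and reading the same on both strands, was present at 5 of the 13 sites (3 of the 8 lead sites) and at 10.8% of island CCGG sites.

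The lead sites of the 2 genes of mitochondrial metabolism lay 16 bp and 39 bp downstream of the start of their nearest transcript. Ogdh encodes the E1 subunit of the 2-oxoglutarate dehydrogenase complex of the citric acid cycle, and its only site (chromosome 11, 6291647, 16 bp from the start, in an exon and untranslated in 1 transcript) was at 52.1%, 51.4%, 41.9% and 37.5% in DIO-HFD mice. All 4 DIO-VSG mice were listed at 0. CON-LFD mice were at 0, 30.4% and 0, and DIO-LFD mice at 0, 36.4% and 0, so in each of these groups only replicate 2 had any methylated reads. The difference of the means, DIO-VSG minus DIO-HFD, was −45.7 percentage points.

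Nudt9 encodes an ADP-ribose pyrophosphatase, and its only site (chromosome 5, 104046906) lay 39 bp from the start of its nearest transcript. The site was in an exon in 1 of 3 transcripts and also within the gene Gm43545, and Nudt9 itself starts further upstream, at position 104046306. It had a narrow range in DIO-HFD mice, at 36.7%, 40.5%, 40.0% and 40.6%. DIO-VSG mice were at 3.51%, 0.990%, 4.76% and 8%. CON-LFD mice were at 1.49%, 17.9% and 13.5%, and DIO-LFD mice at 10.5%, 23.3% and 3.70%. DIO-VSG mice (difference −35.1 points from DIO-HFD) overlapped both CON-LFD and DIO-LFD mice. The MspI fragments on the sides of this site are 330 bp and 27 bp long. Both are outside the 40 to 170 bp that the labels give for the size selection.

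Metap1 encodes a methionine aminopeptidase that removes the first methionine from new proteins. Its lead site (chromosome 3, 138489151, 248 bp from the start, in an intron) had a difference of −45.0 points between DIO-VSG and DIO-HFD mice. DIO-HFD mice were at 44.7%, 38.3%, 52.5% and 46.8%, and 3 of the 4 DIO-VSG mice were listed at 0, the other at 2.33%. The second Metap1 site (138489049, 350 bp from the start) was at 51.9%, 58.1%, 47.5% and 45.7% in DIO-HFD mice and at 23.5%, 23.8%, 57.1% and 64.3% in DIO-VSG mice. There the DIO-VSG mice lay on both sides of the DIO-HFD mice, 2 below and 1 above, with 1 inside their range, and the difference of the means was −8.60 points.

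Strip2 encodes a component of the STRIPAK phosphatase and kinase complexes, and it had 3 sites. The lead site (chromosome 6, 29917094, 83 bp from the start, in an exon and coding in 3 of 5 transcripts) had a difference of −43.0 points, with DIO-HFD mice between 41.6% and 47.0% and DIO-VSG mice at 0, 1.79%, 3.57% and 0. DIO-LFD mice gave 10.6%, 57.1% and 0, and CON-LFD mice 32.3%, 54.3% and 0, so either group reached from DIO-VSG levels to above the DIO-HFD range. The other 2 sites, upstream of the start, did not separate the groups. At position 29916981 (−31 bp), DIO-HFD mice were at 50%, 42.1%, 44.9% and 43.7% and DIO-VSG mice at 25%, 15%, 51.7% and 55.9%. At position 29916849 (−163 bp) the DIO-VSG mean was the higher, 58.2% ± 15.4 (SD, n = 4) against 50.1% ± 4.01 (SD, n = 4), with 1 DIO-VSG mouse at 80%.

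Rnf219 encodes a RING-type ubiquitin ligase described to act on the origin recognition complex. Its lead site (chromosome 14, 104522505, 162 bp from the start, in an intron) had the smallest difference of the 8, −26.0 points. DIO-HFD mice were at 38.1%, 24.1%, 27.3% and 24.2%, and DIO-VSG mice at 1.56%, 3.10%, 0 and 4.88%. CON-LFD mice (7.69%, 21.4% and 5.80%) lay between these groups, while DIO-LFD mice spread across them at 10.6%, 43.1% and 11.1%. The second Rnf219 site (104522688, −23 bp) was low in most mice, listed at 0 in 7 of 14, among them 2 of the 4 DIO-HFD mice, with 33.3% and 14.5% in the other two.

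Zc3h6 encodes a protein with CCCH zinc fingers, a domain that often binds RNA. Its lead site (chromosome 2, 128967493, 86 bp from the start, in an untranslated exon, also within the gene Gm10762) had the largest difference of the 8, −48.0 points, from 44.7%, 53.2%, 40% and 54.2% in DIO-HFD mice to 0 in all 4 DIO-VSG mice. CON-LFD mice were at 5%, 48.2% and 0, and DIO-LFD mice at 24.6%, 39.1% and 0. Each of these groups spanned most of the distance between DIO-VSG and DIO-HFD mice. The second Zc3h6 site (128967388, −14 bp) was at 51.9%, 42.6%, 33.3% and 46.0% in DIO-HFD mice and at 19.0%, 50%, 20% and 23.1% in DIO-VSG mice, a difference of −15.4 points with an overlap of 1 mouse.

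Tmem9b encodes a lysosomal membrane protein, and its only site (chromosome 7, 109752220, 60 bp from the start, 100 bp from the start of 4930431P19Rik) was also high in the lean controls. DIO-HFD mice were at 44.7%, 44.4%, 38.8% and 44.3%, and all 4 DIO-VSG mice were listed at 0, a difference of −43.1 points. CON-LFD mice were at 40.7%, 53.9% and 55.6%, overlapping the obese mice, and DIO-LFD mice at 24.4%, 40.3% and 0. Of the 8 lead sites, this was the one where the CON-LFD mean, 50.1% ± 8.13 (SD, n = 3), exceeded the DIO-HFD mean, 43.1% ± 2.86 (SD, n = 4).

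Gm37256 is a long noncoding RNA gene without a role known from the sources used here. Its only site (chromosome 3, 75956504, 405 bp from the start) lies within the gene Golim4, whose start is 146 bp away. DIO-HFD mice were at 49.3%, 34.5%, 26.1% and 40.3% and DIO-VSG mice at 2.63%, 0, 0 and 0, a difference of −36.9 points. CON-LFD mice (11.6%, 50.7% and 2.86%) and DIO-LFD mice (0, 57.0% and 14.9%) again had replicate 2 as the highest.

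At the 5 sites that were not lead sites, CON-LFD and DIO-LFD mice overlapped DIO-HFD mice. The Strip2 site at −163 bp was between 45% and 59.6% in these 6 mice, the Strip2 site at −31 bp between 32.6% and 54.1%, and the second Metap1 site between 30% and 54.2%. The second Zc3h6 site was at 40%, 50% and 13.3% in CON-LFD mice and 31.0%, 48.5% and 47.1% in DIO-LFD mice, and the second Rnf219 site at 0, 36.4% and 0, and at 8.80%, 19.6% and 2.27%. Replicate 2 of both groups was again the highest at the second Zc3h6, Rnf219 and Metap1 sites, but not at the upstream Strip2 sites.

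**Figure D1:**
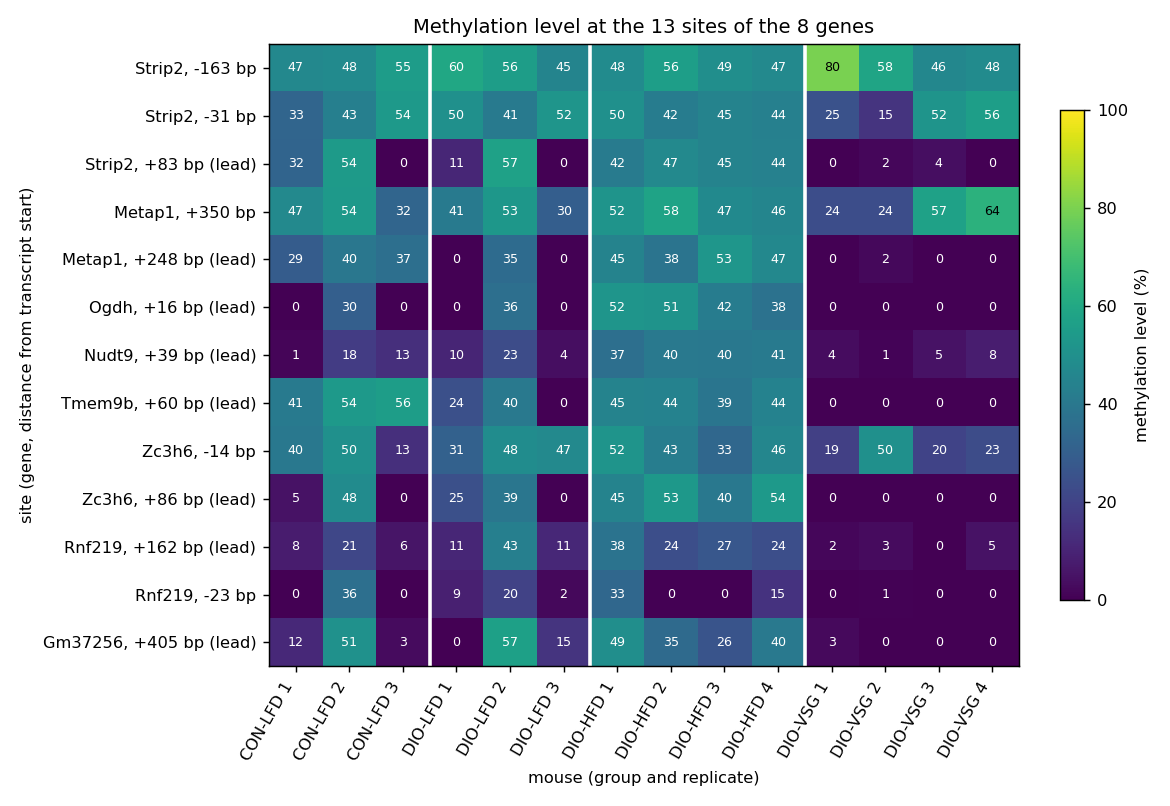
Methylation level in percent (color and printed value) at the 13 sites of the 8 genes (vertical axis, with the distance from the transcript start) in each of the 14 mice (horizontal axis, by group). At the lead sites all DIO-VSG values are 8% or less, while the other sites of Strip2, Metap1 and Zc3h6 stay between 15% and 80% in these mice.

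Over the 8 lead sites together, all 32 levels in DIO-VSG mice were under 10% and 21 were listed at 0. In DIO-HFD mice 30 of 32 levels were at least 25% and 0 were under 10%, bounds that were chosen after the values were seen. CON-LFD mice had 9 levels under 10%, 4 from 10% to 25% and 11 of at least 25%, and DIO-LFD mice had 9, 8 and 7, so both groups held levels of either kind. No lead site was listed above 57.1% in any mouse. In this whole tissue, a change of methylation within cells and a change in the mix of cell types cannot be told apart.

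The mean over the lead sites separated single mice within both groups. It was 16.0%, 39.6% and 14.3% in CON-LFD mice and 10.1%, 41.4% and 3.71% in DIO-LFD mice, against 38.9% to 44.0% in DIO-HFD mice and 0.963% to 1.61% in DIO-VSG mice. CON-LFD replicate 2 and DIO-LFD replicate 2 thus lay within the range of DIO-HFD mice, and the other 4 mice lay between the DIO-VSG and the DIO-HFD range. CON-LFD replicate 2 was the highest of its group at 7 of the 8 lead sites, against 37.7% of all tested sites and 36.6% of island CCGG sites, and DIO-LFD replicate 2 at 8 of 8, against 26.3% and 35.5%. Over those 6 mice the 28 pairs of lead sites had a Pearson r of 0.15 to 0.97 (median 0.72), given as a description because the sites share their mice and libraries.

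**Figure D2:**
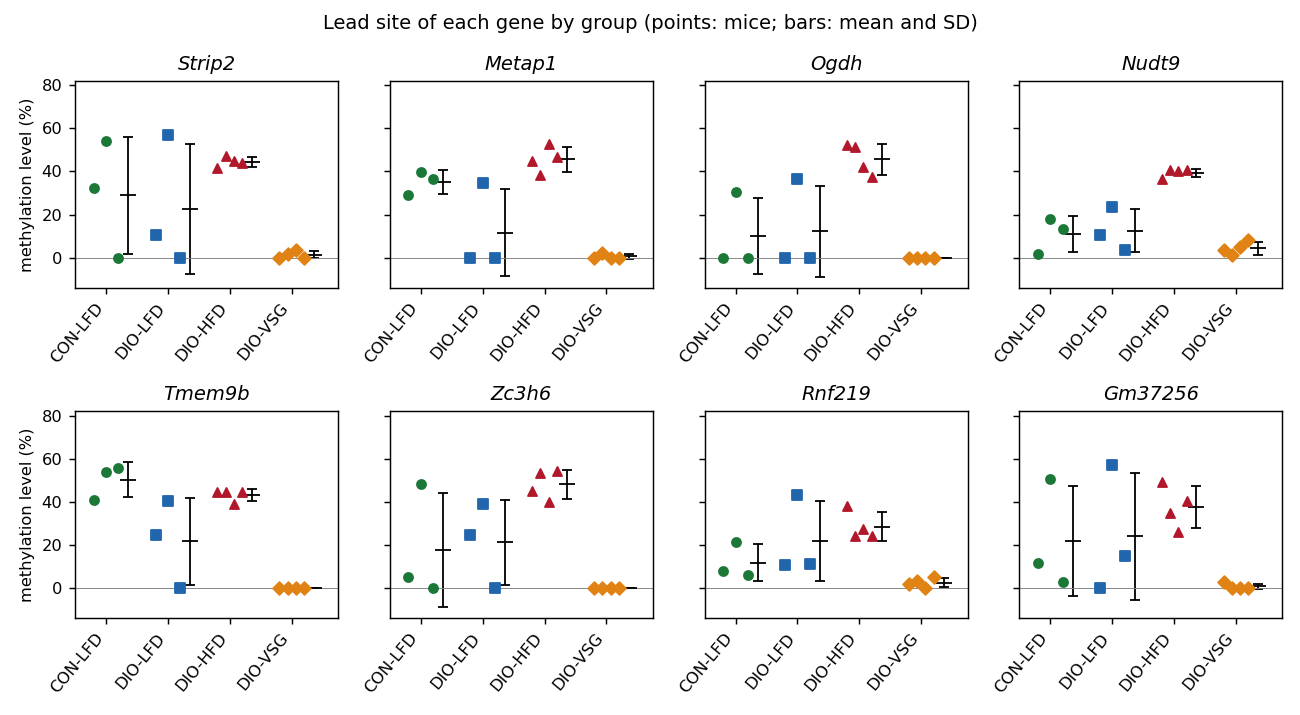
Methylation level in percent at the lead site of each gene, by group. Points are mice and bars give the mean and SD (n = 3 or 4); DIO-VSG mice are at 8% or less at every lead site, and CON-LFD and DIO-LFD mice span the range from 0 to 57.1%.

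The differences at the lead sites were set beside those at all tested sites and at sites of the same kind. The 8 lead sites had a median difference of −43.0 points, against −0.52 points over island CCGG sites, 5.40 over all tested sites and −8.60 over the 5 other sites of the genes. Every DIO-VSG mouse was below every DIO-HFD mouse at 8 of 8 lead sites and 0 of 5 other sites, against 2.03% of all tested sites and 5.31% of island CCGG sites. Because this contrast chose both the genes and the lead site within each gene, these differences and counts are given without a reading. A mean under 10% in DIO-VSG and over 25% in DIO-HFD mice occurred at 68 tested sites (0.104%), of which 45 were within CCGG (66.2%, against 29.1% of tested sites) and 36 were island CCGG sites. The lead sites are 8 of those 36, which follows from bounds chosen after their values were seen.

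**Figure D3:**
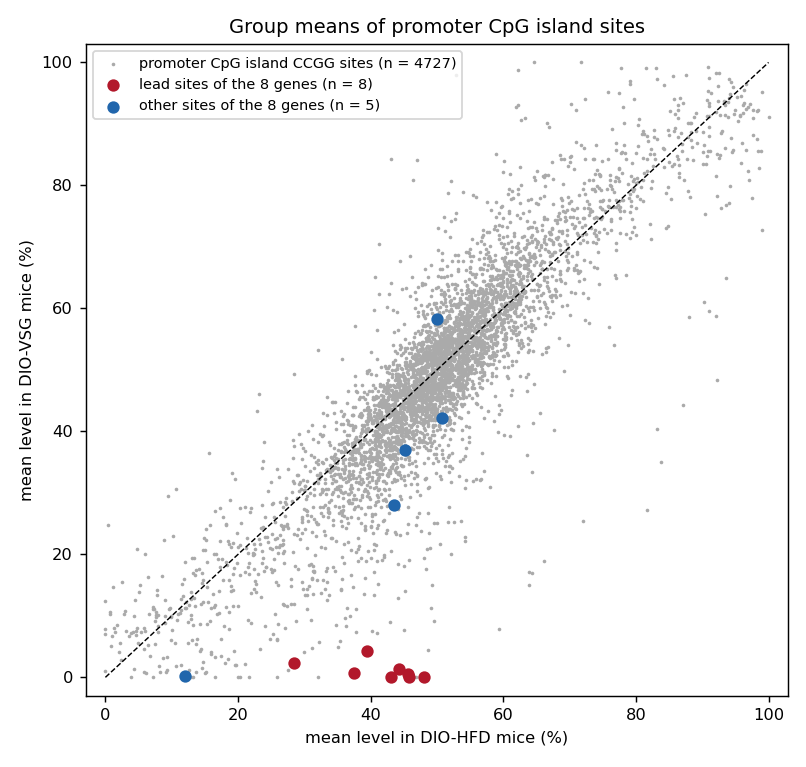
Mean level in DIO-HFD mice (horizontal axis, percent) against mean level in DIO-VSG mice (vertical axis, percent) for 4727 island CCGG sites (grey), the 8 lead sites (red) and the 5 other sites (blue); the dashed line marks equal means. The lead sites lie along the floor of the plot, between 28.4% and 48.0% on the horizontal axis, and most grey points follow the dashed line.

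The 5 other comparisons of groups were tested by limma across all 65610 sites, on M, which is log2((b + 0.01)/(1 − b + 0.01)) for a level b, with Benjamini-Hochberg adjustment over all of them. DIO-LFD against CON-LFD mice, which asks what earlier obesity leaves after weight loss by diet, is the comparison whose means share no mice with the choice of genes. Its standard errors still pool the spread of all 4 groups, including the DIO-VSG and DIO-HFD mice that chose the genes. The p-values are therefore not fully independent of that choice. No member site passed an adjusted p of 0.05 there (0 of 13, against 0.00457% of all tested sites), and 2 had an unadjusted p under 0.05 (2.81% of all tested sites), both lower in DIO-LFD mice. At Metap1, CON-LFD mice were at 28.9%, 39.6% and 36.6% and DIO-LFD mice at 0, 34.8% and 0 (M difference −3.85, standard error 1.16, unadjusted p = 0.00539, adjusted p = 1 by limma), with the levels of CON-LFD replicate 1 and DIO-LFD replicate 2 overlapping. Without DIO-LFD replicate 2 the adjusted p for Metap1 was 0.00123 by limma, and 20 of all tested sites (0.0305%) passed. Tmem9b was also lower (M difference −2.94, standard error 1.08, unadjusted p = 0.0177, adjusted p = 1 by limma). The highest DIO-LFD level there, 40.3%, was next to the lowest CON-LFD level, 40.7%, at unknown depth. At the other 6 lead sites the mean difference was between −6.27 and 9.97 points, with unadjusted p-values from 0.255 to 0.935 in the same limma fit.

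The other 4 comparisons each share 1 group with the contrast that chose the genes, so the choice favors low values in DIO-VSG mice and high values in DIO-HFD mice. Against DIO-HFD, DIO-LFD mice had 0 of 13 sites past the threshold (0.00305% of all tested sites) and 4 with an unadjusted p under 0.05 (10.1% of all tested sites), at Metap1, Ogdh, Nudt9 and Tmem9b, the smallest at Metap1 (unadjusted p = 0.00115, adjusted p = 0.494 by limma, with 2 of 3 DIO-LFD mice at 0). Metap1 passed without DIO-LFD replicate 2 (adjusted p = 0.000253 by limma), where 36 of all tested sites (0.0549%) passed. It also passed without DIO-HFD replicate 1 (adjusted p = 0.0332 by limma), but without that mouse 9551 of all tested sites (14.6%) passed too. CON-LFD mice had 0 of 13 (0% of all tested sites) and 4 with an unadjusted p under 0.05 (7.76% of all tested sites), at Ogdh, Nudt9, Zc3h6 and Rnf219, the smallest at Nudt9 (unadjusted p = 0.00360, adjusted p = 0.611 by limma, lower in 3 of 3 mice). Without DIO-HFD replicate 1 it was again 0 of 13, while 7852 of all tested sites passed. At all these sites the group compared with DIO-HFD had the lower mean.

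DIO-VSG mice were set against the groups that ate the same 10% formula, which asks whether surgery left another level than diet alone or than leanness. Against DIO-LFD, 0 of 13 sites passed (0.00305% of all tested sites) and 4 had an unadjusted p under 0.05 (3.98% of all tested sites), at Tmem9b, Zc3h6, Rnf219 and Gm37256. The smallest was at Rnf219 (unadjusted p = 0.00112, adjusted p = 0.922 by limma), where every DIO-VSG mouse was below every DIO-LFD mouse. Tmem9b passed without DIO-LFD replicate 3, the mouse listed at 0 (adjusted p = 0.000121 by limma), where 12 of all tested sites (0.0183%) passed. Against CON-LFD, 0 of 13 passed (0.00305%) and 5 had an unadjusted p under 0.05 (2.86% of all tested sites), at Metap1, Tmem9b, Zc3h6, Rnf219 and Gm37256, all lower in DIO-VSG mice.

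Because low values in DIO-VSG mice chose these genes, a p from this comparison is not independent of the choice. The smallest was at Tmem9b, with 0 in 4 of 4 DIO-VSG mice and 40.7% to 55.6% in CON-LFD mice (M difference −6.66, standard error 1.01, unadjusted p = 1.73e-05, adjusted p = 0.227 by limma). Its adjusted p by limma was under the threshold in 5 alternatives, at 0.0294 with the levels in place of M, 0.000786 with only these groups, 0.0343 with an SD of 0.1 or more required, and 0.0286 and 7.13e-06 without DIO-LFD replicate 2 or 3. In that order, 1, 12, 2, 10 and 4 of the sites tested in each setting passed (0.00152%, 0.0183%, 0.0133%, 0.0152% and 0.0061%). The adjusted p of Metap1 by limma was 0.0463 with only these groups and 0.00144 without DIO-LFD replicate 2. Between DIO-VSG and DIO-HFD mice 0.00305% of all tested sites passed, and no test is given for the genes themselves.

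The opposite ends of MspI fragments gave a further reading of the same DNA, chosen after the values were seen. Within promoter CpG islands, 1160 fragments of 40 to 200 bp had both ends among the tested sites. In these the levels of the ends moved against each other over the 14 mice, with a median Pearson r of −0.88 (quartiles −0.95 and −0.65), negative in 88.8% of fragments. The levels of the ends added up to a median of 98.2% (quartiles 95.8% and 101%), and the mean sum was between 90% and 110% in 78.1% of fragments. The median sum was between 97.7% and 99.3% in each of the 14 mice. A level at one island CCGG site was therefore, in most fragments, the complement of the level at the other end, and island CCGG sites averaged 48.5% to 50.7% in each mouse, against 24.0% to 35.3% at the 3163 other tested sites of promoter islands. The part of bases added in end repair in the levels of the 8 genes was not tested.

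**Figure D4:**
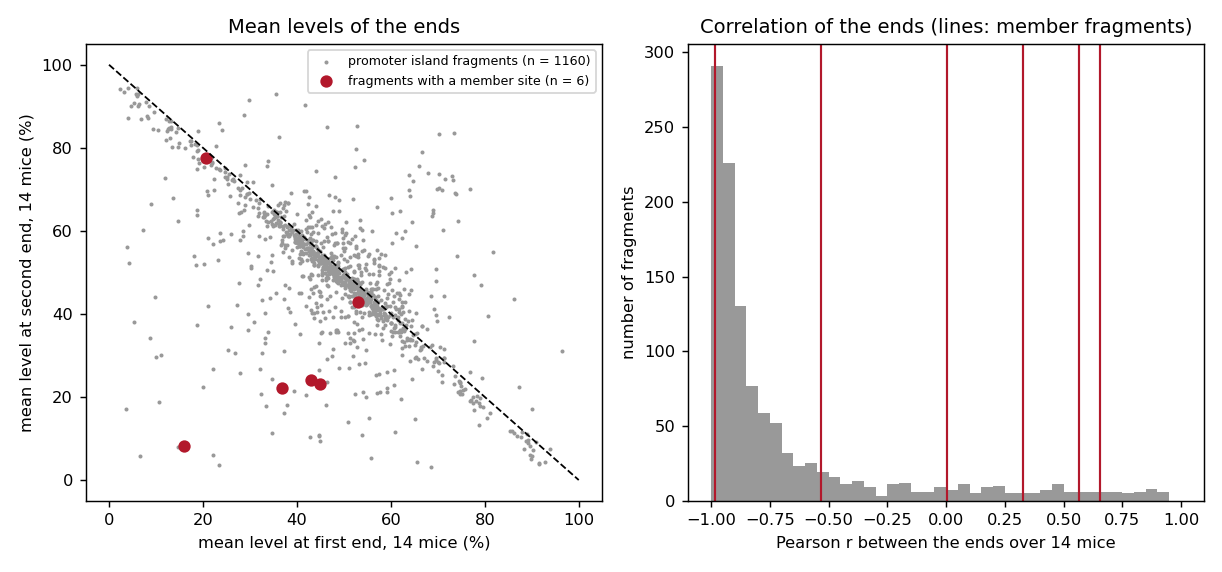
Left, mean level over 14 mice at the first against the second end (percent) of 1160 promoter island fragments (grey) and of the 6 fragments with a member site and both ends listed (red); the dashed line marks a sum of 100%. Right, number of fragments by the Pearson r between the ends over the 14 mice, with red lines at the 6 fragments, from −0.99 to 0.66, against a median of −0.88.

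Of the fragments of the 8 genes, 6 had both ends listed, and the one with the Gm37256 site showed this pattern. Its far end, 117 bp away at position 75956621 and assigned by the table to Golim4, which encodes a Golgi membrane protein, was at 100%, 100%, 95.1% and 100% in DIO-VSG mice and at 51.5%, 65.5%, 73.3% and 58.3% in DIO-HFD mice. The far end was therefore higher after surgery, 98.8% ± 2.44 (SD, n = 4) against 62.1% ± 9.39 (SD, n = 4), where the Gm37256 end was lower. The ends added up to 89.4% to 103% in every mouse, with r = −0.99 over the 14 mice.

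The remaining 5 fragments varied. At Metap1, Zc3h6 and the 132 bp Strip2 fragment the sum was above 90% in most DIO-HFD mice. At the 113 bp Strip2 fragment it was 87.7% to 91.6% in these mice. At 3 of the 4 fragments of these genes the sum was far lower in DIO-VSG mice. The ends of the 102 bp Metap1 fragment added up to 96.7%, 96.4%, 100% and 92.4% in DIO-HFD mice and to 23.5%, 26.1%, 57.1% and 64.3% in DIO-VSG mice. The 113 bp Strip2 fragment gave 91.6%, 89.0%, 89.5% and 87.7% against 25%, 16.8%, 55.3% and 55.9%, and the 105 bp Zc3h6 fragment 96.7%, 95.7%, 73.3% and 100.2% against 19.0%, 50%, 20% and 23.1%. In these 3 fragments the lead end was at 3.57% or less in DIO-VSG mice, while the 12 levels at the opposite end were from 15% to 64.3%, 5 of them within or above the range of DIO-HFD mice.

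The 132 bp Strip2 fragment that holds no lead site had sums of 73.3% to 105% in DIO-VSG mice and a mean sum of 96.0% over all 14. The 183 bp Rnf219 fragment, longer than the 40 to 170 bp that the labels give for the size selection, had ends that rose and fell together (r = 0.66), with a sum of 24.1% to 71.4% in DIO-HFD mice and 0 to 4.88% in DIO-VSG mice. At Metap1, Zc3h6 and the 113 bp Strip2 fragment r was 0.33, 0.57 and 0.00, and −0.53 at the 132 bp Strip2 fragment. Loss at a lead site was thus mirrored by gain at the far end in 1 of the 5 fragments that hold a lead site and have both ends listed.

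**Figure D5:**
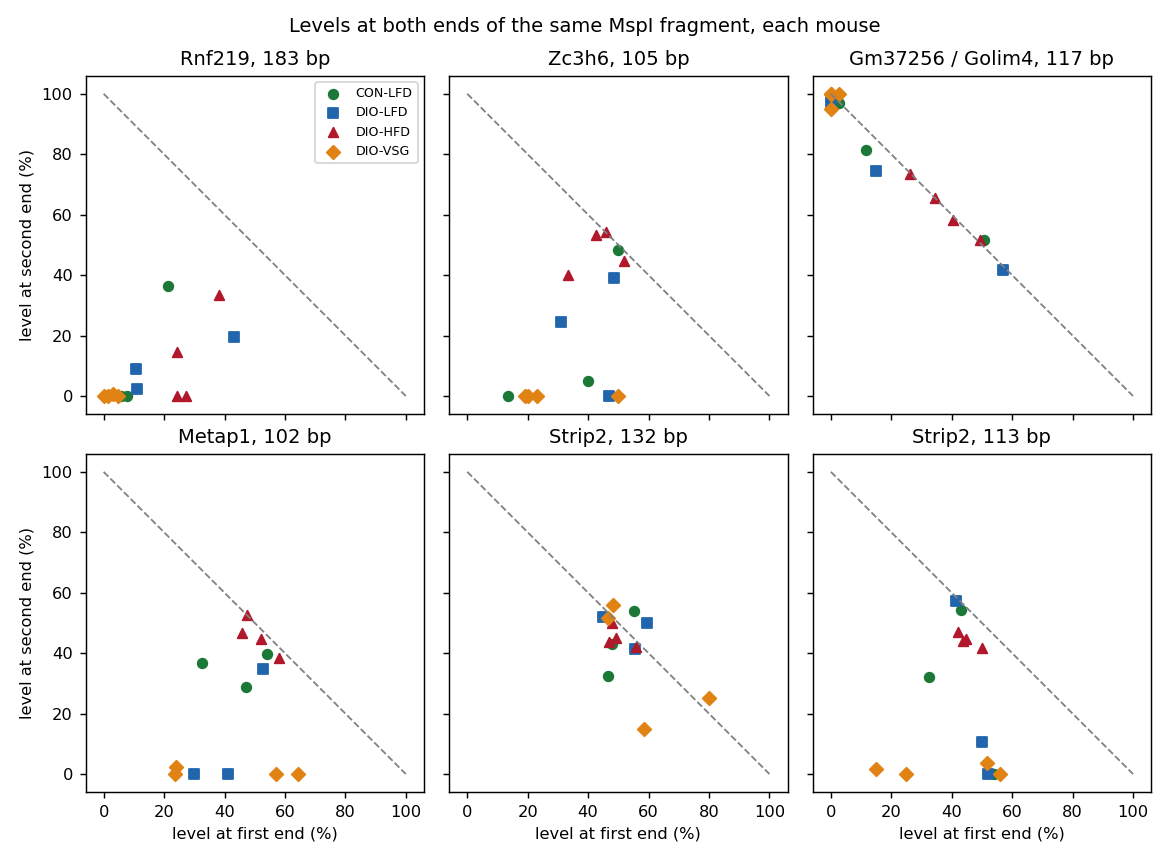
Level at the first end (horizontal axis, percent) against level at the second end (vertical axis, percent) of the 6 fragments in each of the 14 mice, colored by group; the dashed line marks a sum of 100%. The Gm37256 and Golim4 ends follow the line in all mice, whereas at Metap1, Zc3h6 and the 113 bp Strip2 fragment DIO-HFD mice lie near the line and DIO-VSG mice on the floor of the plot.

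The CpGs between the ends were not listed for the fragments examined, and the reason for this was not examined. The 8 fragments of 102 to 183 bp that touch a member site held 97 inner CpGs, from 7 to 19 each, and 0 of these were in the table. Strip2 had 2 of these fragments and Nudt9 had none. Longer fragments of 330 bp at Nudt9 and 211 bp at Strip2 also touch a member site and were not included. Over all island CCGG sites, 93.0% of fragments of 40 to 200 bp likewise had no inner CpG listed, and 2.66% of their inner CpGs were listed. At the lead sites other than that of Nudt9, levels are therefore known only at the listed ends of a fragment. Levels inside the fragments were not analysed here.

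The genes whose sites were most like the mean of the lead sites over the 14 mice were Slc16a1 (Pearson r = 0.96), Phf6 (0.95), Srgap2 (0.95), Bmpr1a (0.95) and Pan3 (0.94), named by rank alone. All 5 sites were island CCGG sites. Of the 50 sites with the highest r, 47 were within CCGG, against 29.1% of tested sites. In promoter CpG islands lay 39 of the 50. Of the 65610 tested sites, 4727 within CCGG and 3163 others lay there. The r was taken over all 14 mice, against a mean of sites chosen by the contrast of DIO-VSG with DIO-HFD mice. A high r is therefore not independent of that choice, and these counts are given without a reading. Slc16a1, which encodes a lactate and pyruvate transporter, was at 40.2% ± 0.922 (SD, n = 4) in DIO-HFD and 7.60% ± 7.13 (SD, n = 4) in DIO-VSG mice, with 23.4% ± 16.7 (SD, n = 3) in CON-LFD and 15.6% ± 20.7 (SD, n = 3) in DIO-LFD mice. Among the member sites r with this mean, which contains the lead sites themselves, was 0.82 to 0.95 at lead sites and −0.28 to 0.63 at the others.

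Lists of 129 partners and relatives of the genes were examined for the same loss, and 33 of these had a tested site, 150 sites in all. After surgery, set against DIO-HFD, 0 of the 150 passed by limma, 10 were lower (6.67%) and 24 higher (16.0%) in DIO-VSG mice at an unadjusted p under 0.05, against 4.85% and 20.2% of all tested sites, and 0 had the pattern of a mean under 10% and over 25%. Without DIO-HFD replicate 1, 35 of the 150 passed, as did 22557 (34.4%) of all tested sites. The STRIPAK list had 0 lower and 7 higher of 25 sites, the list of 2-oxoacid dehydrogenases and the citric acid cycle 0 and 3 of 9, and the Nudix hydrolases, the family of Nudt9, 0 and 10 of 28. The CCCH zinc finger genes had 9 lower and 3 higher of 66, and the origin recognition and CCR4-NOT genes 1 and 1 of 15. The list of methionine removal and myristoylation (2 sites) and that of TMEM9 with its CLC partners (5 sites) had none at that p.

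The site with the smallest p of each list was at Stk26, Pdf, Pdk2, Trpm2, Ostm1, Zc3h15 and Tob1. Of these, Pdf and Tob1 were island CCGG sites. The Tob1 site (chromosome 11, 94211034, −420 bp from the start), in a gene whose protein binds the CCR4-NOT deadenylase, was at 18.5% ± 5.61 (SD, n = 4) in DIO-HFD and 3.04% ± 6.08 (SD, n = 4) in the operated mice (adjusted p = 0.161 by limma). At Pdk2, a kinase that inhibits pyruvate dehydrogenase, the site was higher in DIO-VSG mice, 80.0% ± 1.91 (SD, n = 4) against 63.2% ± 11.8 (SD, n = 4) (adjusted p = 0.150 by limma).

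Sites at marker genes of the cell types in the pad were compared as a check of tissue composition, since expression was not analysed here. Sites of 8 of 14 adipocyte genes averaged 67.9% in DIO-HFD mice (62.9% to 75.9%) and 76.4% in DIO-VSG mice (75.8% to 77.1%), and those of 8 of 17 immune genes 64.1% (60.9% to 70.4%) and 66.1% (64.8% to 66.6%). Epithelial markers (7 of 12 genes) were at 69.2% (67.5% to 71.9%) and 71.0% (68.7% to 72.6%), and endothelial markers (5 of 7 genes) at 58.3% (56.2% to 63.6%) and 55.5% (52.8% to 58.0%). Between these groups 0 of the 107 marker sites passed by limma, and 12 were lower (11.2%) and 27 higher (25.2%) in DIO-VSG mice at an unadjusted p under 0.05, against 4.85% and 20.2% of all tested sites. These were 1 lower and 15 higher of 42 adipocyte sites, 7 and 8 of 31 immune sites, 2 and 2 of 22 epithelial sites and 2 and 2 of 12 endothelial sites. The ranges of the mice overlapped in all 4 lists, but for adipocyte and immune markers through DIO-HFD replicate 1 alone: without it DIO-HFD mice were at 62.9% to 66.6% and at 60.9% to 63.7%, below every DIO-VSG mouse. DIO-HFD replicate 1 stood apart over all tested sites, with a mean of 66.2% against 57.2% to 57.6% in the other 3 mice of its group, but at the lead sites its mean of 44.0% was next to their 38.9% to 41.7%. The DIO-VSG mice averaged 64.2% to 64.8% over all tested sites. Without DIO-HFD replicate 1 the same separation was therefore present there, and it was not particular to the markers. The part of tissue composition in the levels of the 8 genes was not tested.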

How the data were processed

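RRBS of the contralateral mammary fat pad was measured in 14 mice, 3 or 4 a group. Bismark was used by the authors for alignment to mm10, followed by samtools for sorting and methylKit for the calls; 1 CON-LFD and 1 DIO-LFD mouse were left out by them as outliers. They deposited the level of each site in each mouse as a fraction, the methylated share of reads, printed here as a percent; the table holds 75761 sites, 0 missing levels and 361 sites without a gene symbol. It has no read counts, so depth, and the precision it gives, is unknown. The methods name a filter on SD under 0.05, but 10151 listed sites were under it and were left out here.

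The genes, lists and tests were chosen with earlier results of these data known. Groups came from the sample labels. The table's nearest transcript, start distance and flags were used, with spans and exons from GENCODE vM21, and sequence and CCGG positions were read from GRCm38 with samtools 1.23.1. The 4 groups were fitted in 1 model on M by limma (version 3.58.1, under R 4.3.3; moderated by eBayes), two-sided, over 65610 sites, and the fit was tested on simulated data. Named were all 8 genes with every site, the 5 genes with the highest r with the lead mean, and in each partner list the gene of the site with the smallest p. Alternatives were an M offset of 0.1, the level in place of M, trend and robust variance, only the groups compared, centring each mouse on its median, no filter or a standard deviation of at least 0.1, the replicate block, and leaving out each mouse. Python 3.11.15 with pandas 2.3.3, NumPy 2.4.6 and Matplotlib 3.10.9 gave summaries and figures.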

Additional observations from a re-analysis of the deposited data

Results flagged for a closer look

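In 6 of the 23 groups of 4 mice in which the test of a stray value could be made, 1 mouse stood apart from the other 3 by Dixon's criterion. Chance flags about 1 in 20 groups where values are spread, but in 3 of the 6 the other mice were all listed at 0, so that any level above 0 is flagged. In DIO-VSG mice these were replicate 2 at the Metap1 lead site, at 2.33% with the others at 0, replicate 1 at Gm37256, at 2.63% with the others at 0, replicate 2 at the second Rnf219 site, at 0.763% with the others at 0, and replicate 2 at the second Zc3h6 site, at 50% with the others at 19.0% to 23.1%. In DIO-HFD mice they were replicate 1 at Nudt9, at 36.7% with the others at 40.0% to 40.6%, and replicate 3 at Tmem9b, at 38.8% with the others at 44.3% to 44.7%.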

How the results depend on the processing

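The number of member sites past an adjusted p of 0.05 was 0 in the 5 comparisons tested, and 0 under all 22 alternatives for CON-LFD against DIO-HFD. With 1 mouse left out it was 0 to 1 for DIO-LFD against CON-LFD, DIO-LFD against DIO-HFD and DIO-VSG against DIO-LFD, and 0 to 2 for DIO-VSG against CON-LFD, through Metap1 and Tmem9b as given in the report. For DIO-VSG against CON-LFD it was 1 with the level in place of M, 2 with only these groups and 1 with a standard deviation of at least 0.1. Replicate numbers did not pair the mice (over 19 pairs of the same number the deviations from group means correlated at a median r of 0.03, from −0.08 to 0.20, and 4 pairs exceeded 0.1), and with the replicate block the count stayed 0 in all 5 comparisons. Over all tested sites, 2 passed between DIO-VSG and DIO-HFD mice; this count was 2 with the replicate block, 4 with an offset of 0.1, 0 with trend and robust variance, 47 with only these groups, 5 with a standard deviation of at least 0.1 and 2 to 22557 with 1 mouse left out, the highest without DIO-HFD replicate 1. The partner lists had 0 such sites, and 0 to 35 with 1 mouse left out, 35 without DIO-HFD replicate 1; settings for these lists and for single sites were chosen after seeing the data. The median difference of the lead sites was −43.4 to −42.3 points with 1 mouse left out. It was −50.7 with each mouse centred on its median level, which shifts DIO-VSG against DIO-HFD mice by 7.69 points. Single lead sites ranged from −55.7 to −22.8 over the alternatives that were run. Every DIO-VSG mouse was below every DIO-HFD mouse at all 8 lead sites, so leaving out a mouse could not change a sign. This contrast also chose the genes and lead sites, so the ranges are a description only. Unknown depth and groups of 3 or 4 mice limit what can be called.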
